A study of Mus musculus with 12 samples.

Results

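The 8 genes described here encode pluripotency-associated factors that the mouse oocyte stores as maternal mRNA or that are best known from embryonic stem cells. They are Esrrb, Pou5f1, Sall4, Nr5a2, Tcl1, Sox2, Klf4 and Klf17, and they were chosen by symbol from the 56691 genes of the count table, where each matched 1 row. Polyadenylated RNA from 12 mouse oocyte libraries was sequenced, 2 libraries per combination of genotype (WT and KO) and stage (GV, GVBD and MII). KO oocytes lacked Alkbh5, which encodes an RNA demethylase that removes N6-methyladenosine (m6A). The allele, as described for these C57BL/6 mice, removes the first exon with the start codon from every cell, so that the follicle cells around the oocyte lacked the gene as well. Oocytes came from PMSG-primed females of 3 weeks, or of 4 to 6 weeks, since the methods give both ages in different sections. GV oocytes are arrested in prophase with an intact germinal vesicle, GVBD oocytes have broken it down, and MII oocytes have finished the first division. Stages were sampled by time in culture, and because the study describes KO oocytes that stop before these points, KO libraries labelled GVBD or MII can hold oocytes of an earlier stage. The stage reached by KO oocytes and the genotype therefore cannot be told apart. The ERCC mix, a set of synthetic RNAs, was added to each pool before reverse transcription, and levels are given below as spike-in scaled counts, that is counts divided by the library's ERCC total relative to the mean ERCC total. In pools of oocytes, fewer oocytes and less RNA per oocyte cannot be told apart from these counts.

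A fully grown oocyte is largely transcriptionally silent, so the level of a maternal mRNA during maturation mainly reflects storage and decay. Many stored mRNAs are translated and then removed between GV and MII, while others are kept for the embryo, and changes in poly(A) tail length accompany both fates. Since polyadenylated RNA was sequenced, a change in tail length could alter a count without decay or synthesis. The study reports that tails of selected mRNAs shortened less in KO oocytes, from an assay that was not repeated. Its listed primers for that assay cover none of the genes described here. The part of tail length in the counts here was not tested. In embryonic stem cells, ESRRB, an orphan nuclear receptor, acts with POU5F1, SOX2, KLF4, SALL4 and NR5A2 on a shared set of target genes, and TCL1 is a coactivator of the AKT kinases.

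Each library held between 28557742 and 40247810 counts, with 19837 to 24436 genes detected, the fewest in the second KO MII library. Alkbh5 itself had 5355 to 10181 counts in the 6 WT libraries and 54 to 143 in the 6 KO libraries, and was lower in KO by 5.90 ± 0.42 on the log2 scale over all stages (edgeR quasi-likelihood test, adjusted p = 1.61e-05). The 10 oocyte markers were all detected in every library, summing to between 8874.4 and 16632.5 CPM (counts scaled to a common total per library). The 13 granulosa and cumulus cell markers summed to between 27.1 and 75.5 CPM, the highest being the second KO MII library. Most of that sum was Cyp19a1 (577 to 2225 counts), and Fshr had 17 to 221 counts. Amhr2 was at 0 in all libraries, Foxl2 and Amh had at most 5 counts, and the other 8 had at most 130. Blood and endothelial markers summed to between 1761.8 and 3365.1 CPM in the second WT GV library, both KO GV libraries and both WT GVBD libraries. Most of the sum there was haemoglobin (Hbb-bs and Hba-a1). In the other 7 libraries they summed to between 55.4 and 667.1, mostly haemoglobin in the first KO MII library and mostly Pecam1 elsewhere. Pecam1 had 1568 to 5097 counts over all libraries.

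The mRNA ends of the genes that the results turn on are shown first, because maternal mRNAs with a cytoplasmic polyadenylation element near the end can gain poly(A) during maturation. For 1 principal protein-coding transcript per gene (GENCODE M21 on GRCm38), the last 100 bases were searched on the transcript strand for TTTTAT or TTTTAAT, and the last 50 bases for the poly(A) signal AATAAA or ATTAAA. Among 19545 such transcripts, 17.9% held the first and 76.0% the second. Of the 8 genes, Tcl1 and Klf4 held TTTTAT, while Esrrb, Pou5f1, Sall4, Klf17, Nr5a2 and Sox2 held neither form in that window. A poly(A) signal was found in all of them but Nr5a2. Capitals mark TTTTAT in Tcl1 and the poly(A) signal in the others, and sequences run 5′ to 3′ along the mRNA.
Esrrb, chr12:86521593-86521622, plus strand: tatctgaaatctAATAAAtaaggaaaggtc
Tcl1, chr12:105216797-105216826, minus strand: gaatgtgtgggaTTTTATgtggttctattt
Klf17, chr4:117757837-117757866, minus strand: gggggctcaaagATTAAAttgaaaagaagg
Sall4, chr2:168748341-168748370, minus strand: gtaaggtctgaaAATAAAgtgaatgttttc
Pou5f1, chr17:35510736-35510765, plus strand: attttgttcttaAATAAAgactgggacaca
The 303 bases centred on the stop codon were also searched for GGACT, a common form of the m6A consensus, which 31.6% of 18511 transcripts held there. Of the 8 genes only Sox2 had this motif in the window, and the window could not be read for Nr5a2, whose annotated transcript ends too soon. Over the whole 3′ untranslated region, GGACT occurred 1 time each in Esrrb, Sall4 and Klf4 and 3 times in Sox2. The study reports m6A on Esrrb mRNA by immunoprecipitation. A match is a description of the letters and not evidence of a site, and a missing match says nothing of bases outside the window.

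Per kilobase of merged exons, the genes spanned several orders of magnitude in GV oocytes. In WT GV, Tcl1 stood at 46963.87 ± 2450.89 scaled counts per kb (SD, n = 2), followed by Esrrb at 2733.38 ± 196.53, Klf17 at 1815.46 ± 198.37 and Sall4 at 705.65 ± 2.59. Pou5f1 at 119.04 ± 50.35 and Nr5a2 at 71.65 ± 1.93 were far lower and did not separate beyond their spread. Klf4 at 33.84 ± 3.83 and Sox2 at 7.60 ± 8.82 were the lowest, so the oocyte held abundant Esrrb, Tcl1, Klf17 and Sall4 mRNA and very little of Klf4 and Sox2. In MII oocytes of WT the order had changed, with Klf17 at 3211.91 ± 1065.58 and Sall4 at 895.78 ± 309.39 scaled counts per kb, both above Esrrb at 181.16 ± 18.94.

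**Figure D1:**
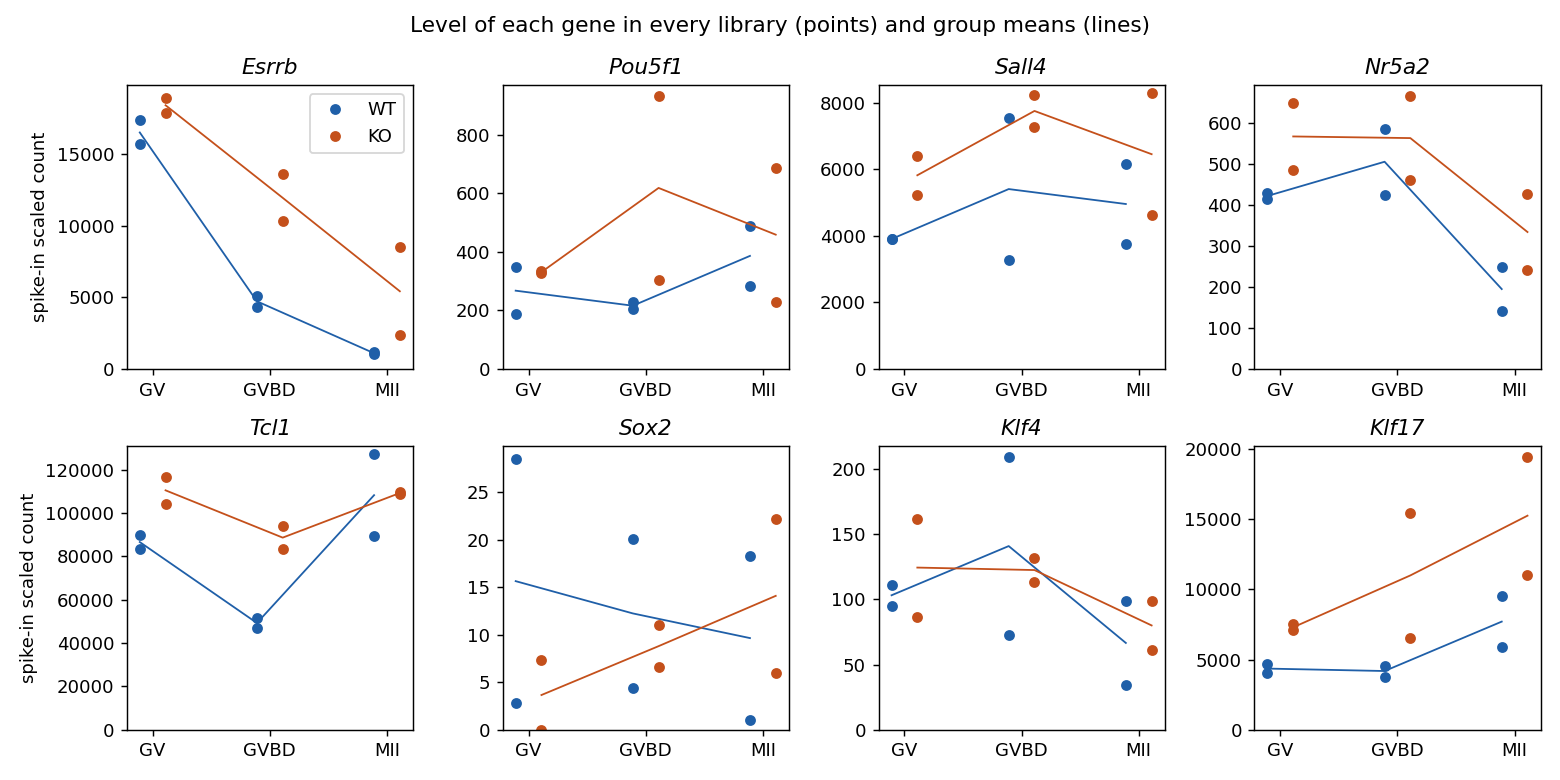
Spike-in scaled counts (vertical axes, each starting at 0) of the 8 genes at GV, GVBD and MII, with 1 point per library, WT in blue and KO in orange, and lines through the group means. Esrrb goes down from about 15688 to 17369 in the WT GV libraries to 1014 to 1176 in the WT MII libraries, and the KO MII libraries lie apart at 8499 and 2357.

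Esrrb, on chromosome 12 (86361117 to 86521628, plus strand), was the 1 member called lower at any step. Its scaled counts in WT were 17369 and 15688 (GV), 4335 and 5117 (GVBD) and 1176 and 1014 (MII). No WT library overlapped another stage, so each step down was larger than the spread between libraries. Pairs of libraries can separate without a difference between groups. The share of all genes that separate in this way was not counted, here or for the genes below. In KO, Esrrb stood at 18955 and 17908 (GV), 10312 and 13608 (GVBD) and 8499 and 2357 (MII). KO stages did not overlap either, but the pair of KO MII libraries differed more from each other than any other pair of Esrrb values. Set against the mean of its own genotype's GV libraries, WT MII libraries retained 7.12% and 6.14% of Esrrb, and KO MII libraries retained 46.1% and 12.8%.

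The comparison of MII with GV addresses which maternal mRNAs fall in polyadenylated level during maturation. In WT, Esrrb fell 15.1-fold (log2 fold change -3.92 ± 0.52, edgeR quasi-likelihood test with Benjamini-Hochberg adjustment over all tested genes, adjusted p = 2.6e-12). In this comparison 30.9% of the 18816 tested genes were called, meaning an adjusted p under 0.05 and at least a 2-fold difference, and Esrrb was the 1 member called of 8. Esrrb from GVBD to MII in WT was the other call, and no member was called in the other 9 comparisons. The median of all tested genes was -1.06 on the log2 scale, so the Esrrb difference was well below that of the typical mRNA, and 7.8% of tested genes lay at or below it. Called lower in this comparison were 4 of 8 granulosa and cumulus markers (median -2.23) and 3 of 5 blood and endothelial markers (-2.31). Of 10 oocyte markers 5 were called lower (-1.14). The part of other cells in the Esrrb difference was not tested. In KO, Esrrb was 3.4-fold lower at MII than at GV (-1.76 ± 0.66, adjusted p = 0.138), which was not called, in a comparison that called 3.28% of genes and in which 0 of 7 tested members were called. Without the first KO MII library the value was -2.97 and without the second it was -1.12, and Esrrb was called in both of these fits (adjusted p = 4.03e-08 and 0.0102). These fits also called 54.2% and 16.9% of all genes, with all-gene medians of -2.09 and -0.80. Wherever a library is left out here, 1 library stands for its group and is assumed to vary like the remaining libraries. The study singled out Esrrb on these same libraries as an mRNA retained without ALKBH5, so its pattern here is not independent evidence. It also reported assays of Esrrb outside these libraries, by RT-qPCR and RNA immunoprecipitation, which were not re-examined here.

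How far the GV to MII difference itself differed between genotypes, tested as an interaction, was 2.15 ± 0.77 for Esrrb on the log2 scale. Its unadjusted p was 0.0169 and its adjusted p 0.66 by the same edgeR test, so it was not called. The interaction called 0% of 20807 genes, while 1197 had an unadjusted p under 0.05. DESeq2 called 154 genes in it, and none of them was a member. Without the second KO MII library the Esrrb value was 2.80 with an adjusted p of 0.0178, in a fit that called 1.24% of genes and in which the KO MII group was a lone library. That library had 54.7 endogenous counts per ERCC count, against 87.9 in the first KO MII library and 47.0 and 73.3 in the WT MII libraries. Its granulosa marker sum was 75.5 CPM against 44.0 in the first, and its blood and endothelial marker sum 86.8 against 667.1. Of the latter, Pecam1 made up 86.26 CPM in the second library. Haemoglobin stood there at 0 (Hbb-bs) and 0.36 CPM (Hba-a1), against 228.93 and 323.75 in the first. The part of these differences in the Esrrb values was not tested. The pair of WT GV libraries, with Hba-a1 at 3.58 and 1962.96 CPM, held 17369 and 15688 scaled counts of Esrrb.

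**Figure D2:**
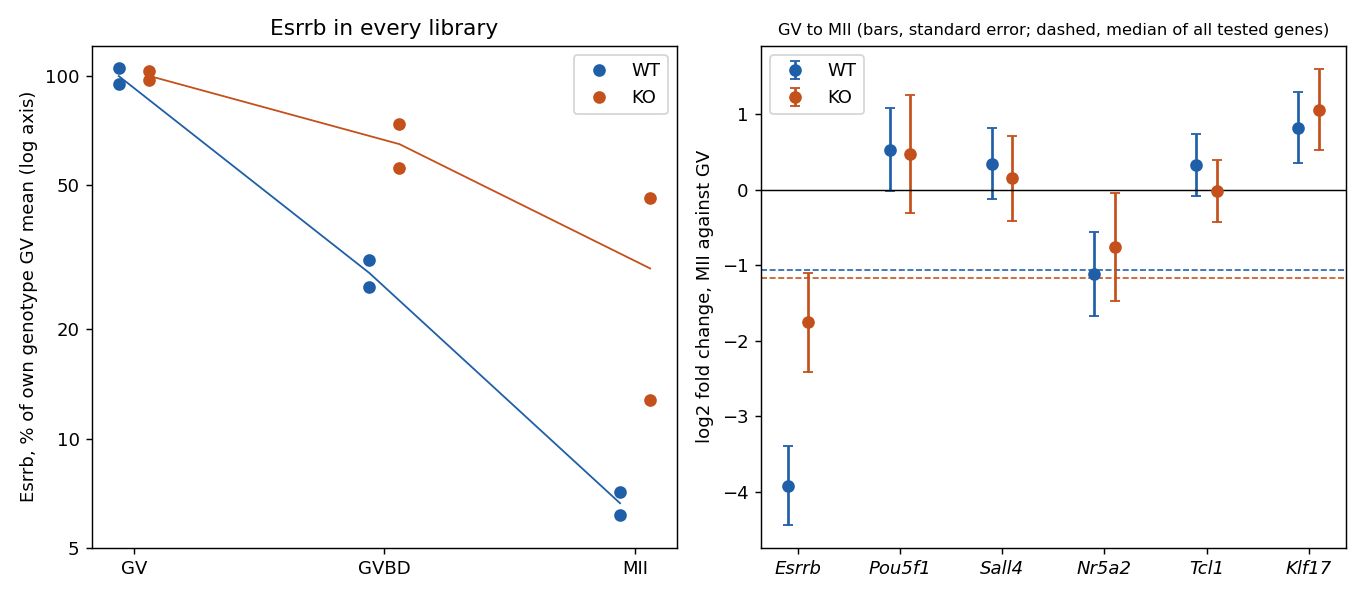
Left, Esrrb in every library as a percentage of its genotype's mean at GV (log axis), WT in blue and KO in orange. Right, log2 fold change of MII against GV with its standard error for 6 genes, with the median of all tested genes dashed (-1.06 in WT, -1.17 in KO). Esrrb lies at -3.92 in WT and -1.76 in KO, while Pou5f1, Sall4, Tcl1 and Klf17 lie above the median in both genotypes.

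The fall of Esrrb in WT was spread over both steps of maturation. From GV to GVBD it was 3.5-fold lower in WT (-1.81 ± 0.35, edgeR adjusted p = 0.176), which was not called in a comparison that called only 0.0511% of genes. Without the filter on low counts, with DESeq2 or with a block for replicate number, the same difference was called (adjusted p = 0.00274, 2.84e-05 and 0.0197), in fits that called 1.80%, 1.94% and 0.93% of genes. In KO the value for this step was -0.62 ± 0.27 (edgeR adjusted p = 0.64), and 0.220% of genes were called. From GVBD to MII, Esrrb fell 4.31-fold in WT (-2.11 ± 0.67, edgeR adjusted p = 0.00895), among 27.8% of genes called. That call was lost when any 1 of the 4 libraries was left out (-2.22 to -1.98) and under median-of-ratios scaling (-1.14, adjusted p = 0.0512). In KO the value was -1.14 ± 0.72 (edgeR adjusted p = 0.402), among 7.20% of genes called, and without the first KO MII library it was -2.34 and called (adjusted p = 0.0159) in a fit that called 32.6% of genes with a median of -1.73.

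Whether KO oocytes held more Esrrb than WT oocytes of the same label is the comparison between genotypes. At GV the KO libraries were slightly higher (log2 fold change 0.16 ± 0.16, edgeR adjusted p = 0.657), below the median shift of all tested genes of 0.36, and 0.0977% of genes were called. At GVBD Esrrb was 2.53-fold higher in KO (1.34 ± 0.51, adjusted p = 0.187) in a comparison calling 2.54% of genes, and DESeq2 called it (adjusted p = 0.0328) among 4.64% of genes. Markers of other cells were called in the same comparison: of 8 granulosa and cumulus markers tested, Fshr was higher in KO (3.38, adjusted p = 0.00897), and of 5 blood and endothelial markers Hbb-bs (-7.83), Hba-a1 (-9.67) and Ptprc (-3.62) were lower. The calls of Fshr and Ptprc were lost under TMM scaling and without the first WT, the second WT or the first KO GVBD library, and that of Hba-a1 without the first WT GVBD library. With all 12 libraries in the fit none of the 4 was called (adjusted p = 0.238 to 0.346). The part of these cells in the Esrrb difference was not tested. At MII Esrrb was 4.95-fold higher in KO (2.31 ± 0.82, adjusted p = 0.209) where 0.803% of genes were called. Of 5 blood and endothelial markers, 2 were called higher in KO there, Hbb-bs and Hba-a1, and of 7 granulosa and cumulus markers 0. The first KO MII library held 8127 scaled counts of Hbb-bs and 11494 of Hba-a1, and the second 0 and 8. The part of blood cells in the Esrrb difference at MII was not tested. On the spike-in scale, Esrrb values of the libraries did not overlap between genotypes at any stage. As CPM of endogenous counts they did overlap at GV, with 409.75 and 392.54 in WT and 367.41 and 398.33 in KO. With the 3 stages fitted together the difference was 1.27 ± 0.37 (adjusted p = 0.102) with 1.26% of genes called. It was called by DESeq2 (adjusted p = 0.00933), without the filter on low counts (0.00233), with all 12 libraries in the fit (0.0421) and without the second KO MII library (0.0497), where 6.16%, 3.57%, 2.04% and 3.84% of genes were called.

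**Figure D3:**
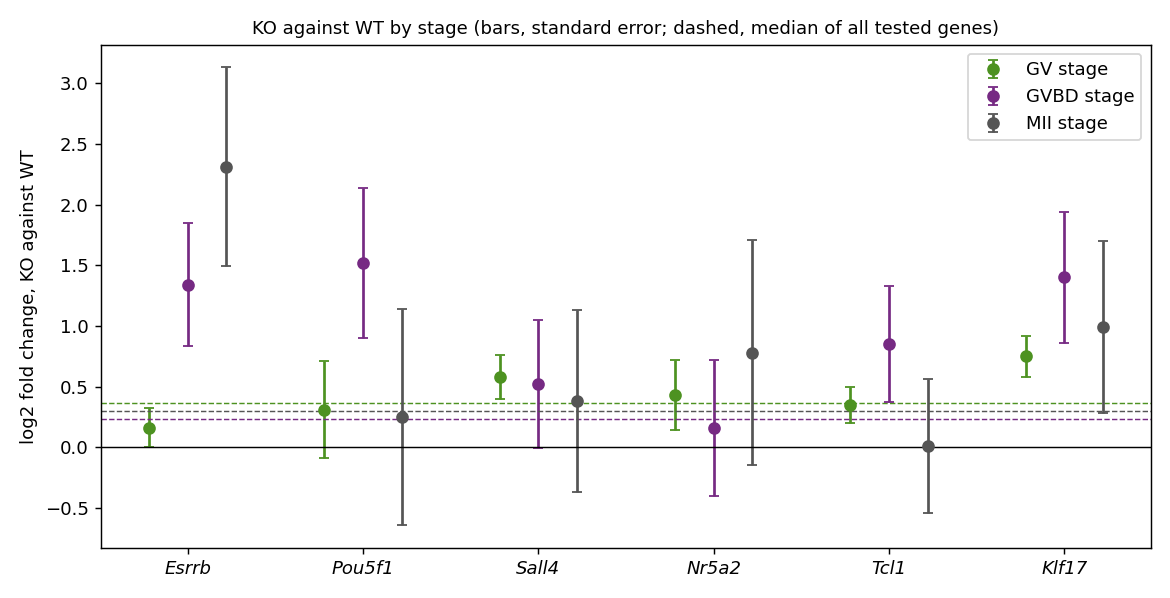
Log2 fold change of KO against WT with its standard error for 6 genes at GV (green), GVBD (purple) and MII (grey), with the median of all tested genes dashed in the same colours (0.36, 0.23 and 0.30). Esrrb goes from 0.16 at GV to 2.31 at MII, and Klf17 is above the medians at all stages, at 0.75, 1.40 and 0.99.

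Tcl1 and Klf17, the other most abundant members, were not called lower at any step of maturation. Tcl1, on chromosome 12 (105216750 to 105222793, minus strand), had scaled counts in WT of 89846 and 83451 (GV), 51592 and 46940 (GVBD) and 127157 and 89459 (MII). In KO it stood at 116826 and 104270 (GV), 94107 and 83293 (GVBD) and 108864 and 109746 (MII). GVBD libraries were therefore the lowest in both genotypes, without overlap, and MII libraries were back within or above the GV range of WT. None of these differences was called, the value from GV to GVBD being -0.81 ± 0.30 in WT (edgeR adjusted p = 0.625) and that from GVBD to MII 1.14 ± 0.57 (adjusted p = 0.123). The second of these was called with DESeq2 (adjusted p = 0.0489), with all 12 libraries in one model (0.0427), with the replicate block (0.00669) and under both relative scalings. From GV to MII the difference was 0.32 ± 0.41 in WT (adjusted p = 0.623) and -0.02 ± 0.41 in KO (adjusted p = 0.986), and KO against WT at MII was 0.01 ± 0.55 (adjusted p = 1).

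Klf17, a Krüppel-like factor of the oocyte and early embryo, lies on chromosome 4 (117757836 to 117765648, minus strand). Its scaled counts in WT were 4694 and 4020 (GV), 4575 and 3792 (GVBD) and 9517 and 5900 (MII). In KO they were 7086 and 7521 (GV), 15450 and 6558 (GVBD) and 19475 and 11056 (MII). Every KO library was higher than both WT libraries of its stage, and MII libraries were higher than GV libraries in both genotypes. KO against WT was 0.75 ± 0.17 (GV stage), 1.40 ± 0.54 (GVBD stage) and 0.99 ± 0.71 (MII stage), and none was called (edgeR adjusted p = 0.158, 0.2 and 1). Over all stages Klf17 was 2.06-fold higher in KO (1.04 ± 0.26, adjusted p = 0.0702), just outside the threshold, while DESeq2 (adjusted p = 0.00424), the fit without a filter (0.0158), the replicate block (0.0202) and the fit without the second KO MII library (0.0312) called it, among 6.16%, 3.57%, 3.06% and 3.84% of genes. MII against GV was 0.82 ± 0.47 in WT (adjusted p = 0.187) and 1.06 ± 0.54 in KO (adjusted p = 0.256). Klf17 was called in WT without the second WT MII library (1.13, adjusted p = 0.038) and in KO without the second KO MII library (1.41, adjusted p = 0.00156), where 0.534% and 0.418% of genes were called higher. From GV to GVBD the values were -0.06 ± 0.35 in WT and 0.59 ± 0.39 in KO (adjusted p = 1 and 0.77), and without the second KO GVBD library the latter was 1.08 and called (adjusted p = 0.00666) among 4.31% of genes.

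Sall4, a zinc finger protein of the stem cell network, was called in no comparison on the spike-in scale, alternative fits aside. In WT it stood at 3917 and 3896 (GV), 7556 and 3260 (GVBD) and 6170 and 3748 (MII), and in KO at 6409 and 5238, 8236 and 7278, and 8289 and 4626. Stages overlapped in WT, and the spread between the 2 libraries of GVBD exceeded any step between stages. MII against GV was 0.34 ± 0.47 in WT (edgeR adjusted p = 0.658) and 0.15 ± 0.56 in KO (adjusted p = 0.896). KO against WT ranged from 0.38 to 0.58 over the 3 stages and was not called. Sall4 lies on chromosome 2 (168748332 to 168767943, minus strand) and overlaps Gm14261 on the other strand. Pou5f1 overlaps the antisense gene Gm19553, and Sox2 lies within Sox2ot on the same strand. Counts of Sall4 and Pou5f1 can include reads of the overlapping genes, since the use of strand in counting was not given in the sources used here. Those of Sox2 can include reads of Sox2ot whatever the use of strand.

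Pou5f1, which encodes OCT4, had few reads for so well known a factor, with 133 to 688 counts over the 12 libraries. Scaled counts in WT were 348 and 188 (GV), 204 and 228 (GVBD) and 490 and 283 (MII). In KO they were 333 and 329 (GV), 934 and 304 (GVBD) and 688 and 230 (MII). The first KO GVBD library was the highest, and at MII the genotypes overlapped. The difference at GVBD was 1.52 ± 0.62 (edgeR adjusted p = 0.234), and MII against GV was 0.53 ± 0.55 in WT and 0.47 ± 0.78 in KO (adjusted p = 0.535 and 0.743).

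Nr5a2, an orphan nuclear receptor that binds the Pou5f1 regulatory region in stem cells, lay below its GV level at MII. Its scaled counts in WT were 431 and 415 (GV), 587 and 425 (GVBD) and 250 and 141 (MII), and in KO 650 and 486, 668 and 460, and 428 and 241. MII libraries were below GV libraries in both genotypes without overlap. The difference from GV to MII was -1.12 ± 0.56 in WT (edgeR adjusted p = 0.122) and -0.76 ± 0.72 in KO (adjusted p = 0.539), near the median of all genes, and it was called without the first WT MII library (-1.59, adjusted p = 0.0391) and without the first KO MII library (-1.24, adjusted p = 0.0279). Those 2 fits called 26.1% and 54.2% of all genes with medians of -1.58 and -2.09, so Nr5a2 was near the median in the first and above it in the second. Granulosa cells express Nr5a2 and Klf4 as well, and the part of such cells in these values was not tested. Klf4, a reprogramming factor, had 68 to 156 counts in all libraries, and Sox2, the partner of OCT4 in stem cells, had 0 to 31, so neither was measured well enough for a difference. Klf4 was tested in every comparison and, alternative fits aside, called in none, and Sox2 passed the filter on low counts in only some of them.

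The members were set beside the behaviour of all genes, because MII oocytes held less RNA per spike-in. Between GV and MII in WT the members' median was -0.16 on the log2 scale against -1.06 for all tested genes, and in KO -0.02 against -1.17. When libraries were scaled by TMM, that is relative to the bulk of their own mRNA, the median of all genes moved to -0.14 in both genotypes. On this relative scale Esrrb was still lower in WT, and Pou5f1 (1.41), Sall4 (1.25), Tcl1 (1.25) and Klf17 (1.73) were called higher at MII, so that 5 of 8 members were called instead of 1. The scaling had a like effect across genes, with 8.47% of all tested genes called higher against 0.393% on the spike-in scale, and 24.7% called in either direction. In KO, Klf17 alone was called on that scale (2.14, edgeR adjusted p = 0.0345), where 1.19% of genes were called higher. On the spike-in scale the same 4 genes had values of 0.32 to 0.82 in WT. Pou5f1, Sall4 and Tcl1 were thus called higher at MII than at GV only relative to the rest of the mRNA. Klf17 in WT was called on the spike-in scale only with the second WT MII library left out (1.13). Across the 12 libraries, the relative levels of Klf17 correlated with those of Pou5f1, Sall4 and Tcl1 at Pearson's r of 0.81 to 0.89, and those of Esrrb with the same 4 at -0.61 to -0.39, as a description of points that share stage, genotype and library.

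Other genes of the stem cell network were counted from a list of 24. Nanog, Utf1 and Fgf4 were at 0 counts in all 12 libraries, and 15 genes passed the filter for MII against GV in WT. Of these, 4 fell and 0 rose, with a median of -0.71, beside 30.9% of all tested genes called and a median of -1.06, so the count is no result about this network. The 4 genes were Gbx2 (-4.90 ± 0.62), a homeobox gene, Sox15 (-2.98 ± 0.79), Dppa5a (-2.13 ± 0.44), which encodes a KH domain protein of pluripotent cells, and Dppa4 (-1.80 ± 0.51), with edgeR adjusted p of 2.16e-13, 0.000929, 1.58e-05 and 0.0025. When each of the 4 libraries was left out in turn, Gbx2 was called in 4 fits, Sox15 and Dppa5a in 2 and Dppa4 in 1. The calls of Sox15, Dppa5a and Dppa4 were lost without the first WT GV library, those of Dppa5a and Dppa4 without the second, and those of Sox15 and Dppa4 without the second WT MII library. Under TMM scaling Dppa4 was no longer called (-0.96), nor was Sox15 with all 12 libraries in the fit (adjusted p = 0.082). In KO 0 of 17 were called, with a median of -0.58, beside 3.28% and -1.17 for all genes. Gbx2 was called in KO by DESeq2 (-2.15, adjusted p = 0.0441) and by edgeR with the replicate block (-2.54, adjusted p = 0.042). Those fits called 16.3% and 13.1% of all genes. Without the first or the second KO MII library its value was -3.77 or -1.40. From GVBD to MII, 3 of 16 fell in WT, namely Gbx2 (-5.37), Dppa5a (-2.27) and Dppa4 (-1.74), and 1 of 16 in KO, Gbx2 (-3.02, adjusted p = 0.0276), beside 27.8% and 7.20% of all genes. The call of Dppa4 in WT was lost under TMM (-0.90) and median-of-ratios (-0.85) scaling and without the filter (adjusted p = 0.0565), and that of Gbx2 in KO under both scalings (-2.36 and -2.35). With a library left out, Dppa5a was called in 2 of 4 fits in WT, without the second WT GVBD or the first WT MII library, Dppa4 in 1, without the first WT MII library, and Gbx2 in 1 of 4 in KO, without the first KO MII library.

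Dppa5a was the 1 network gene called between genotypes, of 16 tested at MII, where 0.803% of all genes were called. Its scaled counts were 22095 and 12900 in the WT MII libraries and 103915 and 62097 in the KO MII libraries, with GV libraries of either genotype between 72947 and 115175. It was higher in KO by 2.25 ± 0.63 on the log2 scale (edgeR adjusted p = 0.0465). The call was lost without the filter on low counts (adjusted p = 0.111), under TMM scaling (0.0648) and under median-of-ratios scaling (0.0688). It was also lost with the replicate block (0.0607) and when any 1 of the 4 MII libraries was left out (1.83 to 2.69). The interaction was 1.81 ± 0.60 (adjusted p = 0.598). Under median-of-ratios scaling it was called (1.98, edgeR adjusted p = 0.0455), in a fit that called 0.529% of genes. Gbx2 had the same order of levels, with 32 and 39 scaled counts in the WT MII libraries against 505 and 97 in those of KO, and its difference of 3.08 ± 1.05 was not called (adjusted p = 0.177) except by DESeq2 (0.0288) and without the second KO MII library (3.83, adjusted p = 0.00836). As for Esrrb, the second KO MII library was the one nearer to WT for both genes.

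**Figure D4:**
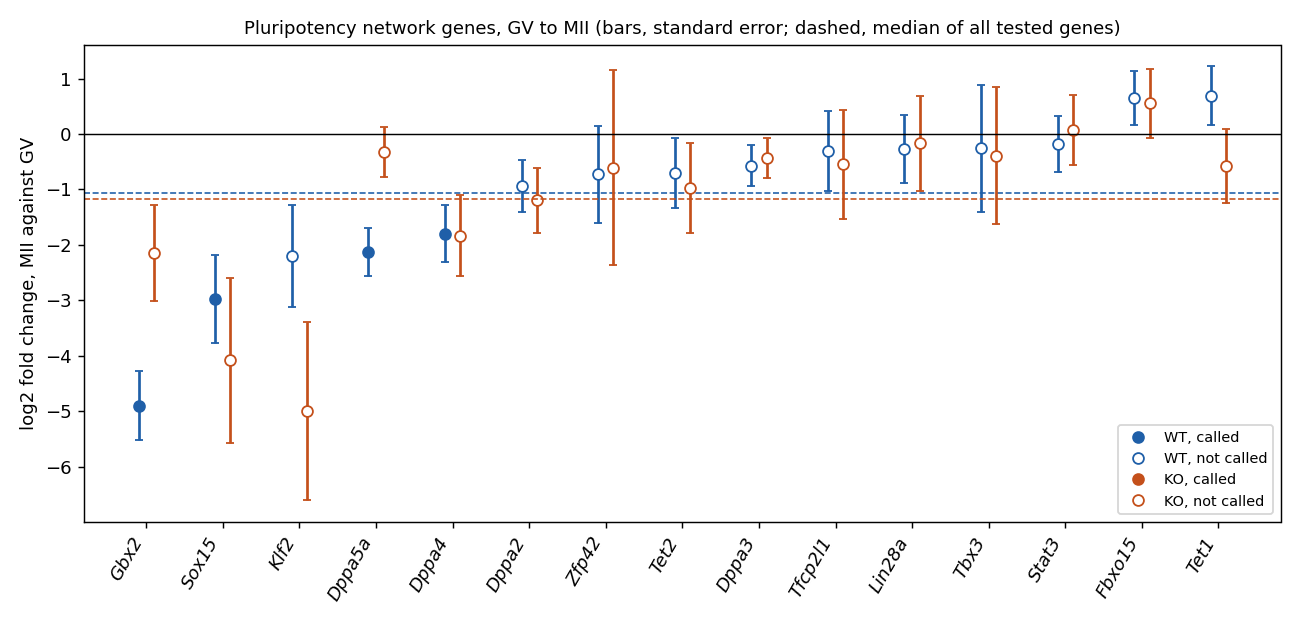
Log2 fold change of MII against GV with its standard error for the 15 genes of the stem cell network that passed the filter in WT, WT in blue and KO in orange, filled where called, with the medians of all tested genes dashed. Gbx2, Sox15, Dppa5a and Dppa4 were called in WT and none in KO in the edgeR fits shown, and Dppa5a lies at -2.13 in WT and -0.32 in KO.

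Relatives of the members were examined to see which family member the oocyte carries. Tcl1b1 to Tcl1b5, the cluster neighbours of Tcl1, had medians of 53998, 27654, 22121, 12128 and 3138 scaled counts per kb over the 12 libraries, against 49852 for Tcl1, so Tcl1b1 and Tcl1 mRNA were of like abundance. The Tcl1b genes resemble each other closely and only uniquely mapped reads were counted, so their levels are uncertain. Their MII against GV values ran from 0.36 to 0.70 in WT and from -0.15 to 0.40 in KO, and none was called. Esrra had 0 to 38 counts and Esrrg 99 to 377, both far below Esrrb, and Nr5a1 and Sall1 had at most 4 and 12 counts. Of the 18 relatives, 12 were tested for MII against GV in WT, and 0 were called, with a median of -0.02, beside 30.9% called and a median of -1.06 among all genes.

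Of 10 genes for partner proteins, the coactivator gene Ncoa3, whose product binds ESRRB in stem cells, was at -0.07 ± 0.47 between GV and MII in WT (adjusted p = 0.945). Hdac2, a deacetylase subunit of the NuRD complex that binds SALL4, fell (-1.61 ± 0.52, edgeR adjusted p = 0.00886), and it was the 1 of 10 partner genes called in that comparison, beside 30.9% of all genes, a call that held only without the first WT MII library when 1 library was left out. From GVBD to MII in WT, Hdac2 (-2.31 ± 0.70) and Mta2 (-2.30 ± 0.78), another NuRD subunit, fell. With a library left out, Hdac2 was called in 2 of 4 fits, not without the first WT GVBD or the second WT MII library, and Mta2 in 1, without the second WT GVBD library. Under TMM scaling neither gene was called in this step (-1.26 and -1.14), nor was Hdac2 from GV to MII (-0.70). With all 12 libraries in the edgeR fit, Mta2 in this step (adjusted p = 0.116) and Hdac2 from GV to MII (0.081) were not called. Mta2 had only 18 to 180 counts. No partner gene was called between genotypes or in KO.

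The genes most like Esrrb in their course over the 12 libraries were Tmem120a, Fkbp2, Sh3bgrl3, Triap1 and Chp2, with Pearson's r of 0.948, 0.945, 0.942, 0.936 and 0.932 on log2 TMM-scaled CPM among 10828 ranked genes. The libraries share stage and genotype, so these values describe likeness of course and nothing else.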

How the data were processed

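RNA-seq counts were analysed. According to the methods and the submitters' processing notes, the authors used cutadapt 1.9 for trimming, HISAT2 2.0.4 for alignment to mm10 with ERCC sequences, only unique alignments, and StringTie 1.3.4d. The deposited values are unnormalized counts per gene. The step that made them, the annotation release and the use of strand were not given in the sources used here, and the sources give 2 different library preparations. The methods give pools of 10 oocytes and a figure legend 20, from 2 biologically independent samples a group, but nothing links libraries to animals, so p-values can reflect technical spread. Libraries were PCR-amplified and carry no molecular identifiers, so counts overstate independent molecules.

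Each of 11 comparisons was fitted with edgeR 4.0.16 (glmQLFit, glmQLFTest, R 4.3.3, two-sided), with library sizes proportional to ERCC totals and genes kept by filterByExpr. Genes were called at a Benjamini-Hochberg adjusted p under 0.05 and at least 2-fold. All members, Alkbh5, at most 4 called genes per list and the 5 genes most correlated with Esrrb (mean of at least 50 counts, prior count 0.5, no Gm, Rik or Ensembl names) were named. Alternatives were TMM, median-of-ratios, no filter, DESeq2 1.42.0, all 12 libraries, a block for replicate number and the omission of each library in turn. The fits were tested on simulated data. The members and lists were chosen with earlier results of these data known.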

Additional observations from a re-analysis of the deposited data

How the results depend on the processing

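With 2 libraries a group and counts of unknown numbers of molecules, differences under about the spread of each pair could not be resolved, and Sox2 (0 to 31 counts) and Klf4 (68 to 156) could not be followed. Among single genes, 396 of the refitted values outside leave-one-out kept direction and side of the threshold, 33 became called, 34 lost the call and 20 changed sign. The cause was not tested.

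Members called moved as follows. DESeq2 called 1 for KO against WT at GVBD, 2 over all stages, 1 for GVBD against GV in WT and 2 for MII against GVBD in WT. In those fits DESeq2 called 903, 1356, 380 and 5449 of all genes, against 494, 278, 10 and 5339 by edgeR. Without the filter the counts were 2 over all stages, 1 for GVBD against GV in WT and 1 for MII against GV in KO (1181, 528 and 2659 of all genes, the last against 616), and with all 12 libraries in the fit 1 over all stages, 2 for MII against GVBD in WT and 1 for MII against GV in KO (449, 3854 and 2933 of all genes). TMM called 4 for MII against GVBD in WT, 5 for MII against GV in WT and 1 in KO, and median-of-ratios scaling 3, 5 and 1, where all genes called were 4916, 4646 and 951 with TMM and 5003, 4825 and 930 with the other. Leaving out 1 library gave 0 to 2 called over all stages, 0 to 2 for GVBD against GV in KO, 0 for MII against GVBD in WT, 0 to 1 in KO, 1 to 2 for MII against GV in WT, 0 to 2 in KO and 0 to 1 for the genotype difference.

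Replicate numbers did not pair the libraries: same-numbered deviations over 13273 genes correlated at -0.22 to 0.22. A replicate block called 1 member over all stages (Klf17, 1.02), 1 for GVBD against GV in WT and 3 for MII against GVBD in WT (673, 182 and 6099 of all genes), and changed no other count of members. Esrrb and Tcl1 were among the 3, and Klf17 was not. Between neighbouring stages only Esrrb, Tcl1 and Klf17 were followed by name in the refits, so any other member called there is not named. Crossing the numbers, added after seeing the data, called 0 members in its 3 comparisons.

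Signs changed under TMM and median-of-ratios scaling, respectively, for KO against WT at GV in Esrrb (-0.19, -0.19) and Pou5f1 (-0.04, -0.04), at GVBD in Nr5a2 (-0.13, -0.13), and at MII in Pou5f1 (-0.13, -0.14) and Tcl1 (-0.12, -0.13). They changed for GVBD against GV in WT in Klf17 (0.03, 0.01), for MII against GV in KO in Nr5a2 (0.34, 0.36), Tcl1 (1.23, 1.25) and Dppa5a (0.79, 0.81), and for MII against GVBD in KO in Dppa5a (0.63, 0.64). With 1 library left out, values crossed 0 for Pou5f1 (-0.07 to 0.82 for KO against WT at GV, -0.75 to 0.83 at MII, -0.53 to 1.06 for MII against GV in KO), Nr5a2 (-0.14 to 0.41 at GVBD), Sall4 (-0.10 to 0.78 at MII, -0.06 to 0.66 for MII against GV in WT, -0.33 to 0.51 in KO), Tcl1 (-0.22 to 0.29 at MII, -0.10 to 0.07 for MII against GV in KO) and Dppa5a (-0.74 to 0.03 for MII against GVBD in KO, -0.74 to 0.00 for MII against GV). For Klf17 they ran from -0.20 to 0.07 and -0.16 to 1.08 for GVBD against GV in WT and KO, -0.02 to 1.22 for MII against GVBD in KO and -0.22 to 0.63 for the genotype difference.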
